A study of Mus musculus with 16 samples.

Results

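The genes described here are 5 noradrenaline receptor genes (Adrb1, Adra1a, Adra1b, Adra2a and Adra2c) and 2 genes for enzymes that break noradrenaline down (Maoa and Maob). They were taken by symbol from the count table of olfactory bulb (OB) microglia, where all 7 were present among 57010 genes, and other adrenergic receptor genes beyond those named in the text were not analysed here. Of these genes 6 passed the filter on low counts that left 18227 genes for testing, and Adra1b did not. The study concerns loss of noradrenergic axons in the OB of a mouse model of Alzheimer's disease, and these genes encode what receives and clears the transmitter of those axons.

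RNA was sequenced from CD11b-positive cells, isolated with magnetic beads from the OB of mice aged 2 months. The controls (WT) were C57BL/6J mice, and the KI mice were App NL-G-F (also written APP-NL-G-F) knock-in animals, which carry familial Alzheimer's disease mutations together with a humanised amyloid-β sequence in the endogenous App gene, so that no added promoter drives it. Each genotype had 4 libraries labelled f and 4 labelled m, giving the groups WT_f, WT_m, KI_f and KI_m. The labels give each library as a separate sample and do not say whether a library held RNA of 1 animal, so p-values measure the spread between these libraries.

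Noradrenaline reaches the OB in axons of the locus coeruleus and acts on receptors of the α1, α2 and β families, which couple mainly to Gq, Gi and Gs proteins. α1 receptors act through phospholipase C and calcium, α2 receptors lower cyclic AMP, and β receptors raise it. Monoamine oxidases, bound to the outer mitochondrial membrane, deaminate the transmitter inside cells, and microglia are known to respond to noradrenaline through β receptors.

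The 2 genes that differed between genotypes lie on different chromosomes of the GRCm39 assembly. Adrb1 is a protein-coding gene at chr19:56710631-56721545 on the plus strand, and its canonical transcript has 1 exon. Adra1a lies at chr14:66872700-67012152 on the plus strand, with 3 exons in its canonical transcript. The 250 bases before the annotated start of each canonical transcript are shown to compare the letters upstream of these receptor genes, chr19:56710381-56710630 for Adrb1 and chr14:66872450-66872699 for Adra1a, both on the plus strand and read 5′ to 3′. Capitals mark the core letters TGACG of a cyclic AMP response element.
Adrb1: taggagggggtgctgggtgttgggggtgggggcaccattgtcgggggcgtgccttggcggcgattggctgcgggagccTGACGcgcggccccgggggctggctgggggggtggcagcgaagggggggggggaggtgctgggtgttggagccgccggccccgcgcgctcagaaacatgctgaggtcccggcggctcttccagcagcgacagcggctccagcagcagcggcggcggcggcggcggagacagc
Adra1a: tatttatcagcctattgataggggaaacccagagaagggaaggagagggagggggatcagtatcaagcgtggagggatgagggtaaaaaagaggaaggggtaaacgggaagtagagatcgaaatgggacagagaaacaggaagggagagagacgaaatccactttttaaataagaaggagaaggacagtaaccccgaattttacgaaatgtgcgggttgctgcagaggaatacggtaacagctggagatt
The Adrb1 window was 75.6% G and C and held TGACG 1 time, at position -172 from the start. The Adra1a window was 46.4% G and C and had no TGACG on either strand (CGTCA when read on the plus strand). Among 21751 promoters of protein-coding genes of the same length, 18% held these letters on either strand. Neither window held the GC box GGGCGG on either strand, which was present in 36.3% of these promoters. These matches describe the letters and are no measure of binding.

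The remaining genes were spread over 4 chromosomes. Adra2a (chr19:54032582-54037413, plus strand, 2 exons) shares a chromosome with Adrb1, Adra2c (chr5:35435663-35439107, plus strand) has 1 exon, and Adra1b (chr11:43665433-43792037, minus strand) has 2. Maoa (chrX:16485893-16554057, plus strand) and Maob (chrX:16574807-16683686, minus strand) are neighbours with 15 exons each, and their 3′ ends face each other 20.7 kb apart. Exons of Adrb1 share 201 and 330 bases with the opposite-strand long noncoding RNAs Gm59077 and Gm59115, and exons of Adra2a share 382 bases with Gm59091. The kit keeps strand, but the strand setting of the counting is not given in the sources used here, so reads over these bases could not be assigned with certainty.

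The 16 libraries held 9052932 to 18117286 counts, and 3 counts, used here as the limit of detection, corresponded to 0.169 to 0.347 CPM, the count relative to the TMM-scaled library total. The summed level of 12 homeostatic microglia markers was 16902 to 20329 CPM, with WT and KI means of 18418 ± 1008 and 18449 ± 1154 (SD, n = 8 each). Of the 12 markers 0 were called for genotype, against 8.64% of all tested genes. Markers of OB inhibitory neurons were present in every library, with sums of 220 to 363 CPM in WT and 300 to 495 CPM in KI. WT_f replicates 1 and 2 had the highest summed astrocyte markers (1016 and 1218 CPM) and endothelial markers (255 and 293 CPM) of the 16 libraries. Defining genes of noradrenergic neurons were near 0: Dbh, which makes noradrenaline from dopamine, had 10 counts over all libraries, and Slc6a2, the noradrenaline transporter, had 4.

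Adrb1 had the highest level of the 7 genes per kilobase of exon in each of the 16 libraries. Its mean was 10.96 ± 4.07 CPM per kb (SD, n = 16), followed by Maoa at 1.71 ± 0.318, Adra1a at 0.599 ± 0.244, Adra2a at 0.569 ± 0.111, Maob at 0.403 ± 0.194, Adra2c at 0.251 ± 0.0899 and Adra1b at 0.0593 ± 0.0400 CPM per kb. The ranges over libraries did not overlap between Adrb1 and Maoa or between Maoa and Adra1a, and overlapped between every other pair of neighbours in this order. On this scale Adra1a exceeded Adra2a in 9 of 16 libraries. The place of Adra1a depended on its length: its annotated exons cover 20.16 kb and its canonical transcript 4.37 kb. Per kb of canonical transcript its mean was 2.76 ± 1.12 CPM, above the 1.79 ± 0.332 of Maoa and the 0.726 ± 0.141 of Adra2a. By canonical transcript the ranges of Adra1a (1.16 to 5.03 CPM per kb) and Adra2a (0.429 to 1.01 CPM per kb) did not overlap.

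Genotype was tested over both sexes, with sex as a term, to ask whether transcripts for receiving or degrading noradrenaline differed at this age. A gene was called at a false discovery rate (FDR) below 0.1 over all tested genes and an absolute log2 fold change above 0.5. Of the 6 tested genes 2 were called: Adrb1 was lower and Adra1a was higher in KI. Over all tested genes 8.64% were called, 4.33% higher and 4.3% lower. Log2 fold changes of the 6 genes had a median of 0.13, compared with -0.0014 over all 18227. For 0 of the 6 were the ranges of the 8 WT and 8 KI libraries free of overlap, against 1.29% of all tested genes.

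**Figure D1:**
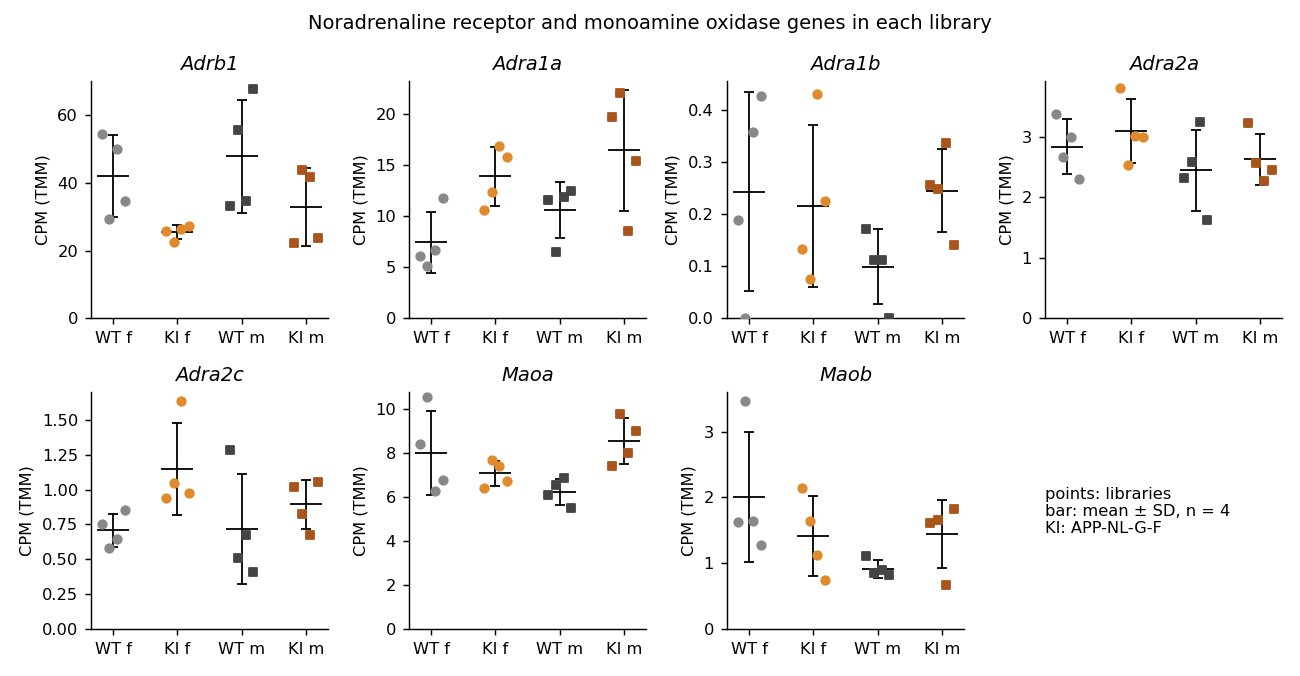
CPM of each of the 7 genes in every library, 1 panel per gene and 1 column per group (WT_f, KI_f, WT_m and KI_m, n = 4 each), with the group mean ± SD. Adrb1 lies lower in KI and Adra1a higher, with overlapping ranges in both.

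Adrb1 encodes the β1 receptor, which raises cyclic AMP through Gs. WT_f replicates 1 to 4 had 54.4, 29.2, 50.04 and 34.6 CPM, and WT_m replicates 1 to 4 had 33.2, 55.6, 34.5 and 67.7 CPM. KI_f replicates 1 to 4 had 25.8, 22.6, 26.4 and 27.2 CPM, and KI_m replicates 1 to 4 had 22.3, 43.7, 41.8 and 23.8 CPM. All 4 KI_f libraries and 2 of the KI_m libraries, 6 of 8 in all, lay below every WT library, while KI_m replicates 2 and 3 lay inside the WT range, so the genotypes overlapped. The mean was 44.9 ± 13.9 CPM in WT and 29.2 ± 8.56 CPM in KI (SD, n = 8 each), and the log2 fold change was -0.64 (SE 0.17, 95% interval -1.004 to -0.271, edgeR quasi-likelihood test, FDR 0.0279). An exact two-sided permutation of genotype within sex, over 4900 splits, gave p = 0.0131 for the difference in mean log2 CPM, where the smallest possible p was 0.000408.

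The Adrb1 level was also expressed relative to the microglia markers. Their mean sum hardly differed between the genotypes (18418 CPM in WT and 18449 CPM in KI), so this ratio restates the difference above and is no separate support. Per 1000 CPM of the 12 homeostatic markers Adrb1 was 2.43 ± 0.698 CPM in WT and 1.58 ± 0.440 CPM in KI (SD, n = 8 each), lower than the WT median in 8 of 8 KI libraries (difference -0.61 on the log2 scale, exact permutation p = 0.0106). Fewer cells of a type and less RNA per cell cannot be told apart in bulk libraries. A sum of 10 immediate early genes, which respond fast to stimulation and to cell handling, was 6483 to 15172 CPM in WT and 2890 to 6611 CPM in KI, and 9 of the 10 were called lower in KI, against 4.3% of all genes. Its correlation was r = 0.44 with Adrb1 over 16 libraries, -0.16 within WT and 0.00 within KI (8 libraries each), and -0.75, -0.59 and -0.46 with Adra1a. Its part in either difference was not tested. Within KI Adrb1 also moved with the summed level of 8 border macrophage markers (r = 0.89, against -0.27 within WT). That sum was 889 and 692 CPM in KI_m replicates 2 and 3, which had the highest Adrb1 of the KI libraries, and 561 to 621 CPM in the other 6. Of these 8 markers 0 were called for genotype, against 8.64% of all tested genes. The part of border macrophages in the Adrb1 values was not tested. Numbered in the order of the samples, libraries 1 to 8 are replicates 1 and 2 of every group, and libraries 9 to 16 are replicates 3 and 4. Each set holds 4 libraries of each genotype. The Adrb1 difference in mean log2 CPM was -0.59 in the first set and -0.62 in the second.

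Adra1a encodes the α1A receptor, which signals through Gq and phospholipase C. WT_f replicates 1 to 4 had 6.13, 5.09, 6.71 and 11.8 CPM, and WT_m replicates 1 to 4 had 11.6, 6.47, 11.9 and 12.4 CPM. KI_f replicates 1 to 4 had 10.6, 12.3, 16.8 and 15.8 CPM, and KI_m replicates 1 to 4 had 19.6, 22.01, 8.56 and 15.4 CPM. The 3 lowest WT_f libraries and WT_m replicate 2 lay below every KI library, 5 of 8 KI libraries lay above every WT library, and KI_f replicates 1 and 2 and KI_m replicate 3 lay inside the WT range. The mean rose from 9.003 ± 3.15 CPM in WT to 15.1 ± 4.52 CPM in KI (SD, n = 8 each), and the log2 fold change was 0.77 (SE 0.20, 95% interval 0.35 to 1.19, edgeR quasi-likelihood test, FDR 0.0204). The exact permutation test gave p = 0.00939. The difference in mean log2 CPM was 1.13 in libraries numbered 1 to 8, which include WT_f replicates 1 and 2, and 0.39 in those numbered 9 to 16. Without WT_f replicates 1 and 2 together the log2 fold change was 0.63 with an FDR of 0.104, and Adra1a was then not called.

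Adra1a followed the markers of OB inhibitory neurons from library to library. Its correlation with the summed level of 10 such markers was r = 0.98 over 16 libraries, 0.95 within the 8 WT and 0.98 within the 8 KI libraries. Adrb1 did not follow them within a genotype (r = -0.10 within WT and -0.02 within KI), and over 16 libraries its r was -0.46. These points share a library and its normalisation. Of the 10 markers, which include the GABA-synthesising enzymes Gad1 and Gad2, 9 had a log2 fold change above 0, with a median of 0.38. Synpr (0.87, SE 0.14, FDR 0.000819) and Meis2 (0.63, SE 0.16, FDR 0.0179) were the 2 called higher, against 4.33% of all tested genes. An FDR below 0.1 alone was met by 8 of the 10, against 14.8% of all tested genes. Per 1000 CPM of these markers Adra1a was 30.8 ± 5.43 CPM in WT and 37.6 ± 5.70 CPM in KI (SD, n = 8 each), a difference of 0.30 on the log2 scale that was above the WT median in 7 of 8 KI libraries (exact permutation p = 0.0294). Within WT, Adra1a rose more than in proportion to the marker sum. It was 6.47 CPM at the lowest WT sum (220 CPM, WT_m replicate 2) and 12.4 CPM at the highest (363 CPM, WT_m replicate 4). As KI sums were higher, the division does not remove the part of the markers. A genotype difference beyond these markers was therefore not tested.

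**Figure D2:**
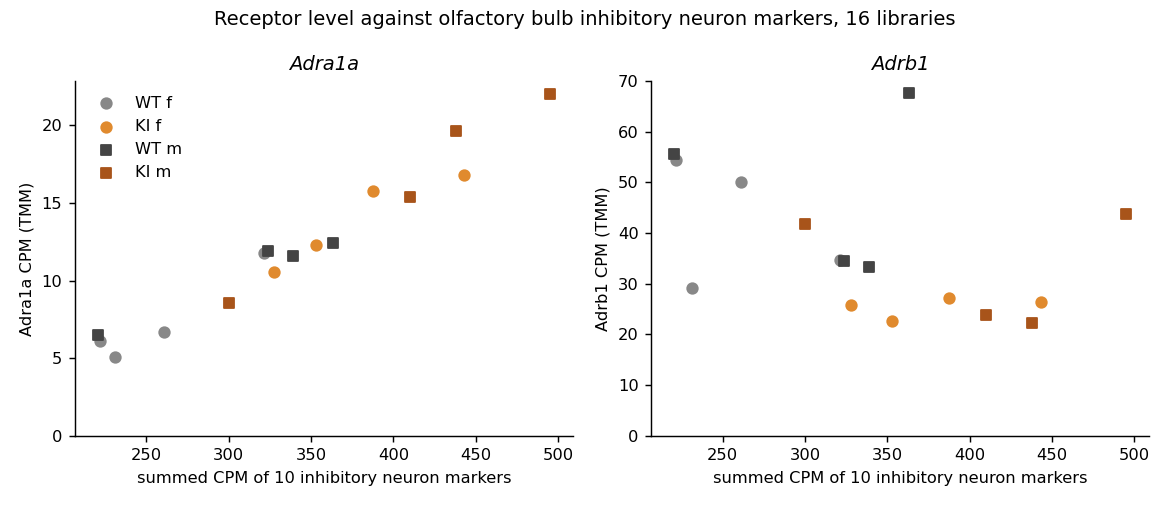
CPM of Adra1a and of Adrb1 against the summed CPM of 10 OB inhibitory neuron markers, 1 point per library (8 WT, 8 KI), on linear axes. Adra1a rises along the markers in both genotypes (r = 0.98 over 16 libraries), and Adrb1 shows no such trend within a genotype (r = -0.46 over 16 libraries).

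The 3 genes most like Adra1a over the 16 libraries, among 13784 genes with a median of at least 20 counts, were C130071C03Rik (r = 0.993), Gm42616 (r = 0.990) and Grin2b (r = 0.988), a subunit of the NMDA glutamate receptor. Their log2 fold changes in KI were 0.79, 0.90 and 0.68, which the choice by likeness to Adra1a over the same libraries largely fixes. The 3 genes most like Adrb1 were Gm49839 (r = 0.875), Utp15 (r = 0.829) and Trit1 (r = 0.819). Utp15 takes part in ribosome biogenesis and Trit1 modifies transfer RNA. Between Adrb1 and Adra1a the correlation was r = -0.44 over the 16 libraries.

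The α2 receptors lower cyclic AMP through Gi, and neither was called. Adra2a, the α2A receptor, ranged from 1.63 to 3.38 CPM in WT and from 2.27 to 3.81 CPM in KI, with medians of 2.62 and 2.78 CPM. These ranges lay almost entirely on top of each other, and 4 of 8 KI libraries were above the WT median. The log2 fold change was 0.11 (SE 0.15, 95% interval -0.20 to 0.42, FDR 0.716), so that differences within this interval could not be told from 0. The genes most like Adra2a were Tpm2 (r = 0.821), Rab3b (r = 0.801) and Slc25a29 (r = 0.765).

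Adra2c, the α2C receptor, was counted 4 to 19 times per library. WT_f replicates 1 to 4 had 0.751, 0.578, 0.642 and 0.854 CPM, and WT_m replicates 1 to 4 had 1.28, 0.506, 0.672 and 0.406 CPM. KI_f replicates 1 to 4 had 0.937, 1.04, 1.64 and 0.973 CPM, and KI_m replicates 1 to 4 had 1.02, 0.827, 0.672 and 1.05 CPM. All 8 KI libraries were above the WT median of 0.657 CPM, while WT_m replicate 1 was higher than 7 of them. The log2 fold change was 0.50 (SE 0.24, 95% interval 0.00927 to 1.00005) with an unadjusted p of 0.0463 and an FDR of 0.198 in the edgeR quasi-likelihood test, against 24.1% of all tested genes with an unadjusted p below 0.05. The exact permutation test gave p = 0.0278, and p = 0.058 to 0.06 without WT_m replicate 2, WT_m replicate 4 or KI_f replicate 3. Without WT_m replicate 1 the log2 fold change was 0.72 with an FDR of 0.0388, and Adra2c was called.

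Adra1b, the α1B receptor, was at the limit of detection, with 0 to 5 counts in WT libraries and 1 to 5 in KI libraries. Over all 16 libraries it had 41 counts, 18 in WT and 23 in KI. An exact permutation test of mean log2 CPM gave p = 0.287, and a difference was not detectable at this depth.

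Maoa and Maob encode monoamine oxidase A, which prefers noradrenaline and serotonin, and monoamine oxidase B, which prefers phenylethylamine. WT_f replicates 1 to 4 had 8.38, 10.5, 6.28 and 6.75 CPM of Maoa, and WT_m replicates 1 to 4 had 6.08, 6.52, 6.84 and 5.48 CPM. KI_f replicates 1 to 4 had 6.42, 7.69, 7.41 and 6.74 CPM, and KI_m replicates 1 to 4 had 7.40, 9.76, 7.98 and 8.99 CPM. Maoa was 5.48 to 6.84 CPM in WT_m and 7.40 to 9.76 CPM in KI_m, whereas KI_f lay inside the range of WT_f, whose replicates 1 and 2 were the high ones. How many of all genes separate the m libraries in this way was not counted. Over both sexes the mean of Maoa was 7.11 ± 1.61 CPM in WT and 7.80 ± 1.11 CPM in KI (SD, n = 8 each), and the log2 fold change was 0.14 (SE 0.13, 95% interval -0.13 to 0.41, FDR 0.56). The exact permutation test gave p = 0.275, and p = 0.0392 without WT_f replicate 2, the highest Maoa library. Without WT_f replicates 1 and 2 together the log2 fold change was 0.32 with an FDR of 0.0973, short of the fold threshold.

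Maob was counted 8 to 32 times per library. WT_f replicates 1 to 4 had 1.63, 3.47, 1.64 and 1.28 CPM, and WT_m replicates 1 to 4 had 1.11, 0.844, 0.897 and 0.813 CPM. KI_f replicates 1 to 4 had 2.14, 1.64, 1.12 and 0.748 CPM, and KI_m replicates 1 to 4 had 1.62, 1.65, 0.672 and 1.83 CPM. WT_f replicate 2 stood above all others, and the ranges of the genotypes overlapped. The log2 fold change was 0.05 (SE 0.29, 95% interval -0.55 to 0.66, FDR 0.945), an interval wide enough to hold the estimate for Adra2c.

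Within the sexes Adra1a was the 1 gene called. In f libraries its log2 fold change was 0.89 (SE 0.29, FDR 0.0801), against 7.15% of all tested genes called in that comparison (2.82% higher), and without WT_f replicates 1 and 2 together it was 0.60 with an FDR of 0.607. Leaving out WT_f replicate 1, 2 or 3 or KI_f replicate 2, 3 or 4 alone also ended the call, with FDR values of 0.112 to 0.234. Adrb1 had a log2 fold change of -0.73 in f libraries (SE 0.25, FDR 0.101), just outside the threshold, and was called (FDR 0.0711 to 0.0991) without any 1 of WT_f replicates 2 and 4, WT_m replicates 1, 2 and 4 and KI_m replicates 1, 2 and 3. In m libraries 0 of the 6 were called, against 0.252% of all genes (0.0878% higher and 0.165% lower). There Adra1a was 0.65 (SE 0.28, FDR 0.377; 0.87 and called at an FDR of 0.0911 without KI_m replicate 3), Adrb1 -0.54 (SE 0.25, FDR 0.412) and Maoa 0.45 (SE 0.15, FDR 0.256). Unadjusted p-values in m libraries (edgeR quasi-likelihood test) were 0.0318 for Adra1a, 0.0426 for Adrb1 and 0.00902 for Maoa. The share of all genes with an unadjusted p below 0.05 was not counted in this comparison.

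**Figure D3:**
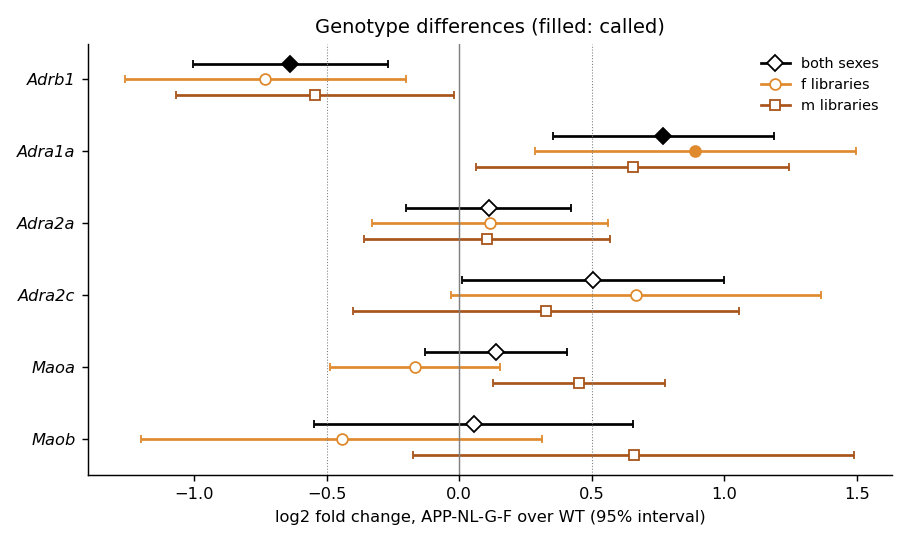
Log2 fold change of KI against WT with 95% intervals for the 6 tested genes, over both sexes (16 libraries), within f and within m libraries (8 each), filled where called, with dotted lines at the fold threshold of 0.5. The interval lies below 0 for Adrb1 and above 0 for Adra1a in all 3 comparisons, and the estimates of Maoa and Maob have opposite signs in f and m libraries.

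The difference between the sexes in the genotype effect was itself tested, and 0 of the 6 genes were called, against 0.0274% of all genes. The effect in f minus the effect in m libraries was -0.62 for Maoa (SE 0.22, unadjusted p = 0.0107, FDR 0.611) and -1.10 for Maob (SE 0.53, unadjusted p = 0.0540, FDR 0.858) in the edgeR quasi-likelihood test. Maoa alone of the 6 had an unadjusted p below 0.05, and the share of all genes below 0.05 was not counted for this test. The Maoa level moved with markers of other cells. Its correlation with endothelial markers was r = 0.66 over 16 libraries, 0.84 within WT and 0.67 within KI (8 libraries each). With oligodendrocyte markers it was 0.69, 0.87 and 0.20, and with astrocyte markers 0.49, 0.90 and 0.14. With markers of olfactory ensheathing cells, the glia that wrap olfactory axons, it was 0.62, 0.84 and 0.41. With projection neuron markers it was negative, at -0.73, -0.84 and -0.75. Rank correlations (Spearman) within WT were weaker for each of these lists. They were 0.69 for endothelial, 0.40 for oligodendrocyte, 0.62 for astrocyte, 0.60 for ensheathing cell and -0.43 for projection neuron markers. Of 10 endothelial markers 8 were called lower in f libraries, against 4.33% of all genes, and 1 higher in m libraries, against 0.0878%. Their summed level was 146 to 293 CPM in WT_f and 102 to 119 CPM in WT_m, and the part of these cells in the Maoa values was not tested. The genes most like Maoa were Snora23 (r = 0.899), Pltp (r = 0.863) and Cnn3 (r = 0.849).

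Between f and m libraries of both genotypes 0 of the 6 genes were called, against 0.0604% of all genes (0.0274% higher and 0.0329% lower). The X-linked Maoa had a log2 fold change of 0.03 in f over m libraries (SE 0.13, 95% interval -0.24 to 0.29, FDR 0.983) and Maob of 0.50 (SE 0.29, 95% interval -0.11 to 1.11, FDR 0.783). The unadjusted p in the edgeR quasi-likelihood test was at or above 0.0888 for all 6, the lowest being that of Adra1a.

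Other genes of the noradrenaline pathway were followed from the receptor to its effectors. Of 78 listed genes 77 were in the table and 68 were tested, 2 of which were called higher and 0 lower in KI, a smaller share than the 8.64% called over all genes. Their median log2 fold change was 0.01. The called genes were Plcb1 and Adcy2: Plcb1, a phospholipase C activated by Gq, rose from 48.6 ± 11.2 to 75.6 ± 15.7 CPM (log2 fold change 0.64, SE 0.13, FDR 0.00607), and Adcy2, an adenylyl cyclase, rose from 18.3 ± 5.63 to 26.7 ± 5.69 CPM (log2 fold change 0.57, SE 0.16, FDR 0.0281; SD, n = 8 each). Mean sums of neuron markers in WT and KI were 382 ± 33.0 and 489 ± 59.8 CPM (SD, n = 8 each). They were 285 ± 58.0 and 394 ± 65.3 CPM for OB inhibitory neurons, and 135 ± 63.9 and 128 ± 28.1 CPM for projection neurons. The part of neurons in the Plcb1 and Adcy2 values was not tested. Rgs2, which shortens Gq signalling, had a log2 fold change of -0.41 (FDR 0.00802) and Crem, a transcription factor that answers cyclic AMP, one of -0.44 (FDR 0.0348), both short of the fold threshold over both sexes. In f libraries 4 of the 68 were called, against 7.15% of all genes: Plcb1 and Adcy2 were higher, and Rgs2 (log2 fold change -0.57, FDR 0.00865) and Crem (log2 fold change -0.77, FDR 0.00326) were lower.

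Of the other receptor genes listed, Adra1d was tested (0.698 CPM per kb; log2 fold change 0.42, SE 0.23, FDR 0.289), and Adra2b and Adrb3 failed the filter with at most 9 and 3 counts in a library. Of 6 tested catecholamine breakdown enzymes on the list beyond the monoamine oxidases 0 were called, against 8.64% of all tested genes. All 6 had a log2 fold change below 0, with a median of -0.06. Akr1a1, an aldehyde reductase (58.0 CPM per kb, log2 fold change -0.04, FDR 0.595), and Sult1a1, a sulfotransferase (12.7 CPM per kb, log2 fold change -0.28, SE 0.13, FDR 0.200), had the highest levels of these 6 enzymes. Per kb of exon both lay above Maoa, the higher of the 2 monoamine oxidases.

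**Figure D4:**
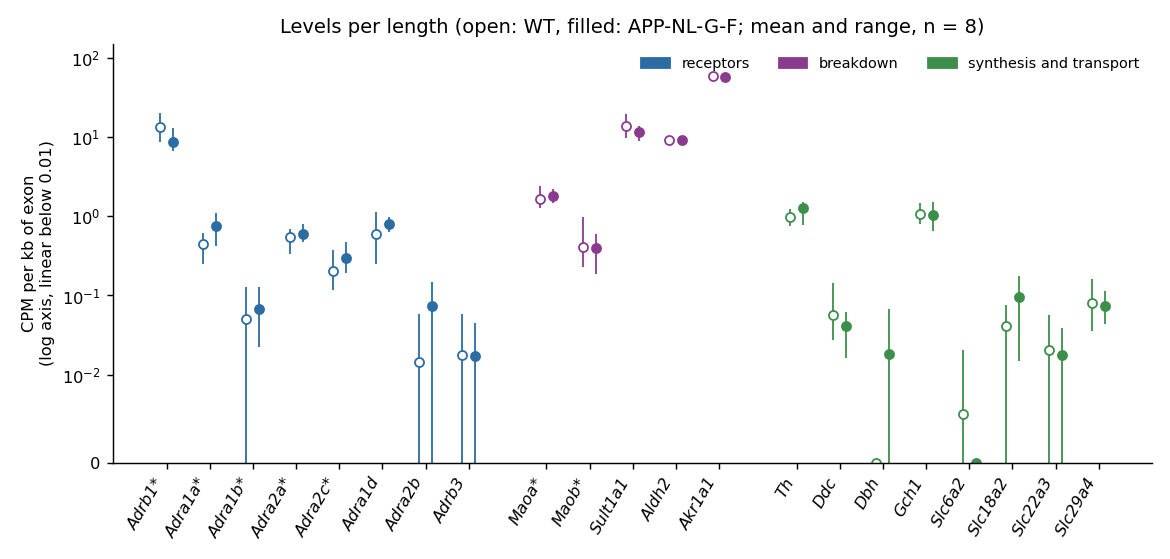
Level in CPM per kilobase of exon (log axis, linear below 0.01) of the 7 genes, marked with an asterisk, and of other receptor, breakdown, synthesis and transport genes. Points are means of 8 WT (open) or 8 KI (filled) libraries and lines span the lowest to the highest library. Adrb1, at 6.59 to 20.03 CPM per kb, is the highest of the receptors plotted, and Maoa and Maob lie below the other breakdown enzymes plotted.

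Of 4 tested synthesis genes and 2 tested transport genes 0 were called, against 8.64% of all tested genes. The highest synthesis genes were Qdpr, which regenerates tetrahydrobiopterin (log2 fold change 0.05, FDR 0.631), and Th, which makes the dopamine precursor and is also expressed by OB interneurons (log2 fold change 0.38, SE 0.14, FDR 0.110). The transport genes were Slc29a4 (log2 fold change -0.12, FDR 0.846) and the vesicular monoamine transporter Slc18a2 (0.379 CPM over all libraries, log2 fold change 1.20, SE 0.47, FDR 0.120). The G protein subunits and cyclic AMP enzymes with the highest levels differed little: the log2 fold change was -0.04 for Gnai2, -0.05 for Gnas, -0.06 for Adcy7, 0.22 for Adcy5, 0.01 for Pde3b and 0.14 for Pde4a, with FDR values of 0.223 to 0.920. It was -0.03 for Prkar1a and 0.02 for Prkacb, both protein kinase A subunits, and -0.05 for Rgs10 (FDR 0.653 to 0.876). Among phospholipases Plcb2 had a log2 fold change of -0.19 (FDR 0.0492), short of the fold threshold, and Plcb3 one of -0.06 (FDR 0.426). An FDR below 0.1 alone was met by 2 of 10 G protein subunits, 1 of 9 adenylyl cyclases and 1 of 10 cyclic AMP phosphodiesterases. It was also met by 1 of 12 protein kinase A and CREB genes, 3 of 4 phospholipases C beta and 2 of 10 receptor desensitisation genes. Of all tested genes 14.8% met it.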

How the data were processed

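RNA of CD11b-bead-isolated OB microglia was prepared with a SMART-Seq Stranded kit and sequenced paired-end in 16 libraries. The authors aligned reads with STAR 2.7.8 to a customised GRCm39 genome with gencode vM32 genes, and deposited raw counts per gene with 1 column per library. Library totals of 9052932 to 18117286 set the precision, which is low for rarely counted genes. Limits of detection cover counting error only. No 2 libraries of a group agreed within sampling noise (chi-square per degree of freedom at least 3.32).

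From these counts, genes counted 5 times or more in 8 or more libraries were kept (18227 genes, 99.9% of counts), scaled by TMM (factors 0.922 to 1.05) and tested in R 4.3.3 with edgeR 4.0.16 (quasi-likelihood test, sex as a term, Benjamini-Hochberg FDR). Effects within each sex, their difference (called at an FDR below 0.1 alone) and f against m libraries were tested in the same way, the first 3 in a fit of the 4 groups. A prior count of 2 was added for log2 CPM, and 95% intervals come from the model's standard errors. Single genes were also tested by exact permutation of genotype within sex. DESeq2 1.42.0, limma voom 3.58.1, other scalings, filters, a replicate block and left-out libraries were alternatives. Procedures were tested on simulated data.

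Positions, exonic lengths and promoters came from GENCODE vM39 on GRCm39, a later release than the authors used. Groups came from the sample titles. Named pathway genes are those called for genotype and the 2 with the highest mean CPM per kb of each list. Like genes are the 3 with the highest Pearson r of log2 CPM. The genes and all lists were chosen with earlier results of these data known. The immediate early list, the marker ratios and the joint removal of 2 WT_f libraries were added after seeing the data. Some genes of the pathway are not reported here and are in no list or count of pathway genes.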

Additional observations from a re-analysis of the deposited data

Results flagged for a closer look

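In 3 of 28 sets of 4 libraries (7 genes in 4 groups) 1 library stood far from the other 3, with a gap to its nearest neighbour above 0.829 of the whole range, where chance gives about 5% of sets, or 1.4. Adra1a was low in WT_m replicate 2 (6.47 CPM against 11.6 to 12.4, a gap of 0.86 of the range), the WT library with the lowest inhibitory neuron marker sum (220 CPM). Adra2c was high in KI_f replicate 3 (1.64 CPM against 0.937 to 1.04, a gap of 0.845 of the range), on 19 counts. Maob was high in WT_f replicate 2 (3.47 CPM against 1.28 to 1.64, a gap of 0.835 of the range), the library with the highest astrocyte and endothelial marker sums and the lowest total. The part of these marker sums in the values was not tested.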

How the results depend on the processing

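Over both sexes the 2 calls, Adrb1 lower and Adra1a higher, were made under every alternative scaling, filter, tool and left-out library (2 to 3 calls), except that only Adrb1 was called without WT_f replicates 1 and 2 together (1 call). With single libraries left out the FDR was 0.0115 to 0.0681 for Adrb1 and 0.00245 to 0.0565 for Adra1a. Within f libraries 1 gene was called, against 0 with limma voom, robust dispersion or without WT_f replicates 1 and 2 together, 2 with genes of any count, and 0 to 2 with single libraries left out. Within m libraries 0 were called, against 2 with genes of any count and 0 to 1 with single libraries left out, where Adra1a was called without KI_m replicate 3 (0.87, FDR 0.0911). The interaction and the comparison of f with m libraries gave 0 calls throughout. Of the 7 single-gene permutation tests 3 had p below 0.05, and 2 to 4 with single libraries left out. These permutation tests were not run over all genes, so no share stands beside this count.

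Sign changes were found for values that were not called by edgeR. With single libraries left out, Maob ranged over -0.044 to 0.283 over both sexes and -0.054 to 0.218 in the permutation test. Adra2a ranged over -0.0359 to 0.245 within m libraries and -0.114 to 0.167 in the interaction (-0.0188 with limma voom), and Adra2c over -0.0894 to 0.534 in the interaction. For f against m libraries, Maoa ranged over -0.0615 to 0.0778, and was -0.00565 with library totals, -0.0123 with limma voom and -0.14 without WT_f replicates 1 and 2 together, a setting that also gave 0.12 for Maoa within f libraries and -0.0571 for Adra1a in the interaction. Divided by inhibitory neuron markers, Adra1b was -0.15, Adra2a -0.35, Adra2c -0.0162, Maoa -0.33 and Maob -0.45 in the permutation test, where Adra2c had p = 0.0278 undivided. This division lowers every gene by the same amount, since the marker sum was higher in KI, so these signs follow from it. The cause of the other sign changes was not tested.

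Replicate numbers are shared between groups, and not every pair of samples with the same number deviated together (r -0.33 to 0.29 over 24 pairs, 8 above 0.1), so the numbers were not taken as pairs. Pairs with other numbers in another group had r of -0.31 to 0.45 (72 pairs, 19 above 0.1). Median r was 0.034 for the same number and -0.030 for other numbers. As a hint from the data, 8 of 16 libraries correlated best with their own number. With the number as a replicate block 2 genes were called over both sexes, 1 within f, 0 within m, 0 in the interaction and 0 between f and m libraries, and over all genes 1562, 1210, 43, 3 and 11, against 1574, 1304, 46, 5 and 11 without it. Over all genes, calls over both sexes were 867 to 2692 under the other settings, 867 being the count without WT_f replicates 1 and 2 together. With single libraries left out they were 1101 to 2187 over both sexes, 594 to 2110 within f and 5 to 603 within m libraries. Counts of 0 to 32 per library limit Adra1b, Adra2c and Maob most.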
